A study of Mus musculus with 3 samples.

Results

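The periportal amino acid and urea genes comprised 10 genes, Cps1, Otc, Ass1, Asl, Arg1, Nags, Gls2, Sds, Hal and Hsd17b13. They were chosen as a named list, and every probe whose RefSeq entry belongs to one of them was taken, which gave 13 of the 55681 probes on the array. Of these genes, 7 had 1 probe and 3 (Otc, Ass1 and Hsd17b13) had 2 probes. Among them 6 genes act in the urea cycle, 3 break down amino acids, and Hsd17b13 belongs to lipid droplets. All 13 probes were measured (well above background) on each of the 3 arrays, with no flagged spot.

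Expression was measured in livers of C57BL/6J mice (c57BL6/J in the labels) 2 days after human YAP was delivered by hydrodynamic tail vein injection, with 1 array for each form. YAP (WT) is the wild-type coactivator, and YAP (1SA) and YAP (2SA) are mutants that escape inhibition by the Hippo pathway and lie in the nucleus. All groups thus carried exogenous Myc-tagged YAP under a hepatocyte-specific AFP enhancer and albumin promoter, and YAP (WT) served as the reference. Injected mice were male and, in the main, 8 weeks old. The plasmid reaches some hepatocytes and not others, so each RNA came from a mixed liver. No uninjected liver was analysed here. Whether an array held 1 liver or several is not stated in the labels, where the YAP (WT) array alone has a number, 2, in its title. With 1 array a group no difference below has a replicate check, no p-value was computed, and both mutants are set against the same YAP (WT) array.

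The urea cycle turns ammonia, which is toxic, into urea for excretion, and the liver is the main organ that runs it whole. It begins in the mitochondria and ends in the cytosol. Hepatocytes near the portal vein, which meet blood rich in amino acids and oxygen first, hold most of these enzymes together with glutaminase and enzymes that strip amino groups from serine and histidine. Hepatocytes near the central vein instead capture leftover ammonia as glutamine. Glucagon, glucocorticoids and factors of the C/EBP family are known to drive many of the periportal genes.

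RefSeq promoter sequences (GRCm38.p6) were at hand for 5 of the 10 genes, Otc, Ass1, Nags, Hal and Hsd17b13. The 250 bases before the start site are shown for Ass1 and Otc, the members that were higher with YAP (1SA), and for Hal, a neighbour in function that hardly differed between arrays. Capitals mark matches on either strand to TTNCNNAA, a core read by C/EBP factors. Each sequence is given 5′ to 3′ on the gene's own strand.
Ass1, chr2:31470020-31470269, plus strand: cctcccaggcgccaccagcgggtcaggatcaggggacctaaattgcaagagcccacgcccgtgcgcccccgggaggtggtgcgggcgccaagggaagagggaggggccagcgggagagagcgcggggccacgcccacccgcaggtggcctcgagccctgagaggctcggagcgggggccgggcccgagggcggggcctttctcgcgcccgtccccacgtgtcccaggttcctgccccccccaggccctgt
Otc, chrX:10252055-10252304, plus strand: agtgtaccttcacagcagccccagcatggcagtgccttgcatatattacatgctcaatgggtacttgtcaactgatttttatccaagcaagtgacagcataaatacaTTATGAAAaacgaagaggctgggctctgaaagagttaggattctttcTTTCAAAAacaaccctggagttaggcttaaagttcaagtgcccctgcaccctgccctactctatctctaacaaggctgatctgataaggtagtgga
Hal, chr10:93488518-93488767, plus strand: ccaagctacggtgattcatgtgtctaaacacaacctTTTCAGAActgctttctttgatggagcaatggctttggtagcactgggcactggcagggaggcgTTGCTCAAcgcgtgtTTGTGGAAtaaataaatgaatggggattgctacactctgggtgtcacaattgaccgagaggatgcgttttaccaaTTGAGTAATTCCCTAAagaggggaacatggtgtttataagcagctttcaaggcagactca
The Ass1 window was rich in G and C (75.6%) and held 0 matches, the Otc window (43.6%) held 2 and the Hal window (45.6%) held 5. Nags had 1 match and Hsd17b13 had 2. Of all 32851 RefSeq promoter windows of this length, 36.8% held the motif. The TEAD core CATTCC, the site through which YAP is recruited to DNA, was found in none of the 5 windows and in 12.6% of all windows. The cAMP response core TGACG was found in Hsd17b13 alone (17.8% of all windows) and the glucocorticoid core AGAACA in none of the 5 (16.1%). These letters are descriptions of the windows and not sites of binding.

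Intensities are given as multiples of each array's 75th percentile of intensity (scaled intensity), which was 290.8 for YAP (WT), 275.7 for YAP (1SA) and 319.5 for YAP (2SA). Differences are log2 ratios of scaled intensities. Probes printed on 10 spots gave the only repeat measurement. For bright probes a difference of 0.15 on the log2 scale (1.11-fold) corresponds to 2 SD of a difference between 2 single spots on 2 arrays, and this is called the limit of repeated spots. The scanner software's own error of 10% per spot corresponds to a wider limit of 0.41. Neither covers the spread between livers. Over all probes measured on both arrays the median difference was 0.02 for YAP (1SA) against YAP (WT), −0.03 for YAP (2SA) against YAP (WT) and −0.06 for YAP (2SA) against YAP (1SA). No spot was saturated. The brightest probes of the 10 genes had intensities of 1958 to 169085, so all were strongly expressed.

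Over the 3 arrays the 10 genes varied about as much as probes at least as bright as the dimmest of them, Nags (the bright set). The bright set has no upper bound and was not matched to the brightness of each gene. The largest difference between any pair of arrays was 0.06 to 0.61 on the log2 scale, with a median of 0.17. The same median was 0.26 over 27858 probes measured on all arrays and 0.17 over 5682 probes at least as bright as the dimmest of the 10 genes. Ass1 and Otc were higher with YAP (1SA), and Sds and Gls2 were lower with YAP (2SA). The scaled intensity was highest with YAP (1SA) for 6 genes, with YAP (WT) for 3 and with YAP (2SA) for 1. It was lowest with YAP (2SA) for 7 genes, with YAP (WT) for 2 and with YAP (1SA) for 1. The probes of the bright set leaned the same way. Their median difference was 0.06 for YAP (1SA) against YAP (WT), −0.04 for YAP (2SA) against YAP (WT) and −0.09 for YAP (2SA) against YAP (1SA). The share of those probes with each order was not counted, so the members' orders are not read as particular to them. For 4 genes (Nags, Asl, Arg1 and Hal) all 3 arrays lay within the limit of repeated spots, so their order carries no information.

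**Figure D1:**
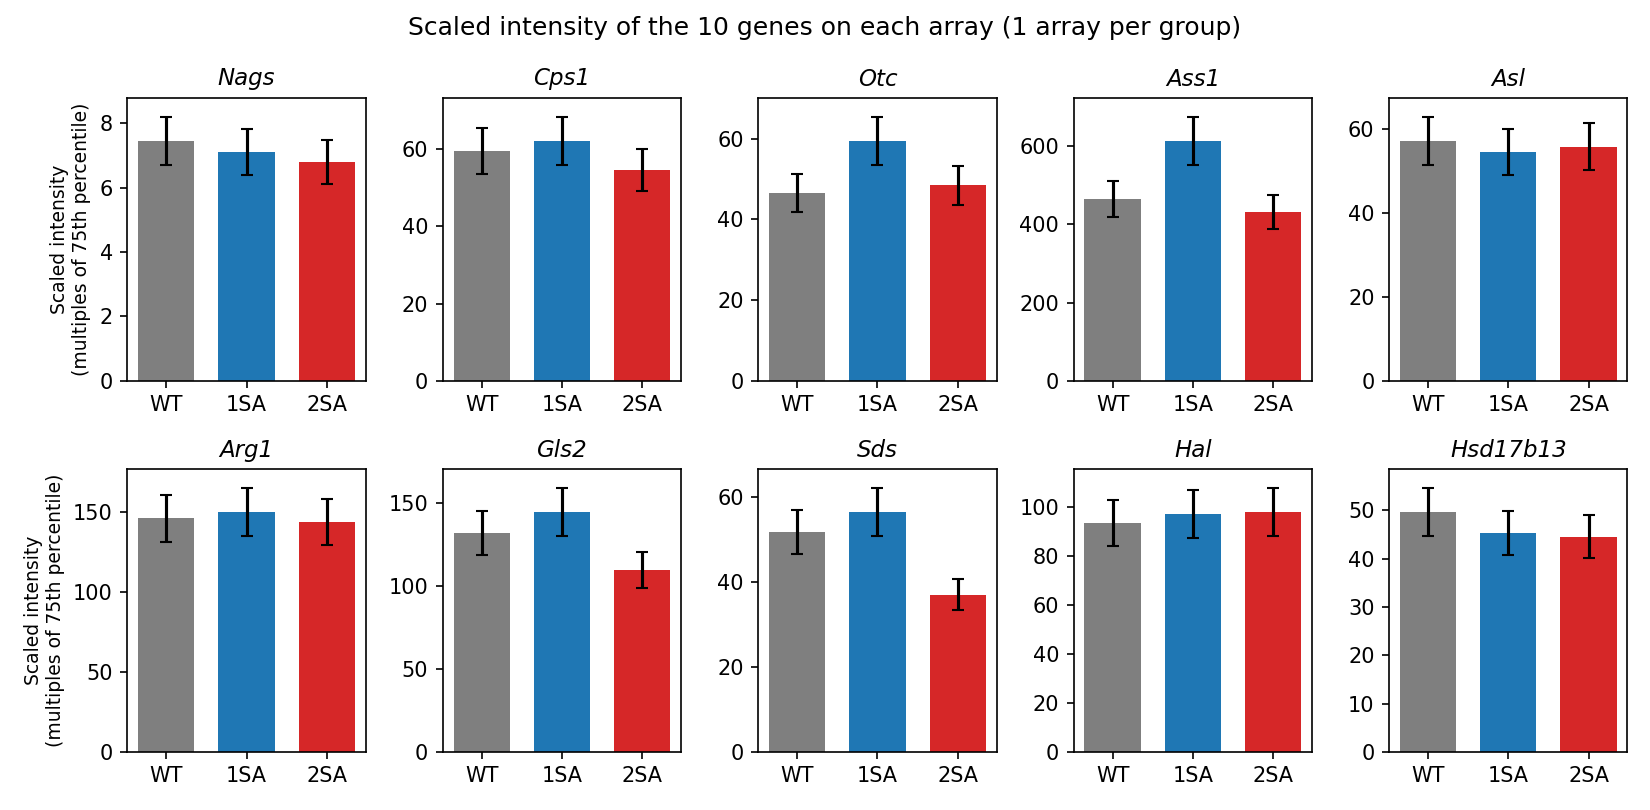
Scaled intensity (multiples of the array's 75th percentile, linear axis from 0) of the brightest probe of each gene on the YAP (WT), YAP (1SA) and YAP (2SA) array. Each bar is 1 array and the error bars are the scanner software's error of 10%, not a spread between animals. Ass1 and Otc stand highest with YAP (1SA), Sds and Gls2 stand lowest with YAP (2SA), and the bars of the other genes are nearly level.

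The first steps of the cycle take place in the mitochondria. Nags makes N-acetylglutamate, the activator without which carbamoyl phosphate synthetase does not work. Its scaled intensity was 7.45 with YAP (WT), 7.10 with YAP (1SA) and 6.79 with YAP (2SA). The differences from YAP (WT) were −0.07 and −0.13, both under the limit of repeated spots. Cps1, which joins ammonia and bicarbonate into carbamoyl phosphate, stood at 59.6, 62.1 and 54.6 in the same order. It differed from YAP (WT) by 0.06 and −0.13, again under the limit, whereas the difference of YAP (2SA) from YAP (1SA) was −0.18 and just past it. RNA of both enzymes that start the cycle thus lay within the limit in each comparison with YAP (WT).

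Otc encodes ornithine transcarbamylase, which joins carbamoyl phosphate to ornithine to give citrulline. Its brighter probe stood at 46.6 with YAP (WT), 59.4 with YAP (1SA) and 48.5 with YAP (2SA). YAP (1SA) was thus apart from both other arrays, by 0.35 (1.28-fold) over YAP (WT), while YAP (2SA) differed from YAP (WT) by 0.06. The second Otc probe was printed on 10 spots of each array and gave the one look at error within a member. Before scaling its intensities ran from 5605 to 6214 (median 5970) with YAP (WT), from 6694 to 7320 (median 7077) with YAP (1SA) and from 6676 to 7256 (median 6988) with YAP (2SA). Scaled, the YAP (1SA) spots all lay above those of both other arrays, and the YAP (2SA) and YAP (WT) spots overlapped. The mean differences over spots were 0.32 ± 0.02 for YAP (1SA) against YAP (WT), 0.09 ± 0.02 for YAP (2SA) against YAP (WT) and −0.22 ± 0.02 for YAP (2SA) against YAP (1SA) (SE, 10 spots per array). The unscaled YAP (1SA) and YAP (2SA) spots overlapped, so the gap between these arrays depends on how they are scaled. On the brighter probe YAP (2SA) differed from YAP (1SA) by −0.29 with the 75th percentile, −0.21 with normexp and −0.15 with quantile normalisation.

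The next enzymes act in the cytosol. Ass1, argininosuccinate synthetase, adds the nitrogen of aspartate to citrulline. Its brighter probe stood at 464 with YAP (WT), 613 with YAP (1SA) and 432 with YAP (2SA). This was the largest difference among the members in YAP (1SA) against YAP (WT), at 0.40 (1.32-fold). It was larger in size than 84.8% of all probes measured on both arrays. The other Ass1 probe gave 308, 407 and 284, and both probes had the same differences within 0.02. YAP (2SA) differed from YAP (WT) by −0.10 and −0.12 on the 2 probes, under the limit, and from YAP (1SA) by −0.50 and −0.52.

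Asl and Arg1 close the cycle. Asl, argininosuccinate lyase, releases arginine and fumarate, and its scaled intensity was 57.2, 54.6 and 55.8 with YAP (WT), YAP (1SA) and YAP (2SA). Arg1, the liver arginase that splits arginine into urea and ornithine, stood at 146, 150 and 144. None of their 6 differences reached the limit of repeated spots, the largest being −0.07 for Asl in YAP (1SA) against YAP (WT). Over the 6 urea cycle genes the median difference was 0.05 for YAP (1SA) against YAP (WT), −0.07 for YAP (2SA) against YAP (WT) and −0.12 for YAP (2SA) against YAP (1SA). In YAP (1SA) against YAP (WT) the limit was thus passed by Otc and Ass1, and the 4 other enzymes lay within it. Of the bright set 30.6% passed it in this comparison, so 2 of 6 genes is near the background.

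Of the 3 amino acid breakdown genes, Sds and Gls2 were lower with YAP (2SA). Sds encodes serine dehydratase, which turns serine into pyruvate and ammonia. It stood at 51.8 with YAP (WT), 56.4 with YAP (1SA) and 37.0 with YAP (2SA). The YAP (2SA) array was the lowest, by −0.48 (1.40-fold) against YAP (WT) and by −0.61 (1.52-fold) against YAP (1SA). These were larger in size than 89.4% and 89.7% of all probes. The difference between YAP (1SA) and YAP (WT), 0.12, did not reach the limit.

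Gls2, the liver glutaminase that frees ammonia from glutamine, stood at 132, 144 and 109. It was lower with YAP (2SA) by 0.27 on the log2 scale (1.21-fold) than with YAP (WT) and by 0.40 (1.32-fold) than with YAP (1SA), and the difference of 0.13 between YAP (1SA) and YAP (WT) was within the limit. Hal, histidine ammonia-lyase, the first enzyme of histidine breakdown, stood at 93.7, 97.2 and 97.9. Its differences of 0.05 and 0.06 from YAP (WT) were within the limit, so the lower values with YAP (2SA) did not extend to all 3 genes of amino acid breakdown. Their median difference was 0.12, −0.27 and −0.40 in the 3 comparisons.

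Hsd17b13 encodes a protein of lipid droplets in hepatocytes. Its brighter probe stood at 49.6 with YAP (WT), 45.3 with YAP (1SA) and 44.5 with YAP (2SA), which gave differences of −0.13 and −0.16 from YAP (WT), the latter just past the limit. The other Hsd17b13 probe, designed on another transcript, was dim at 0.252, 0.258 and 0.292. It gave 0.04 and 0.21 in the same comparisons, so the probes differ in sign and no direction is given for this gene. At such intensities the limit from bright spots does not apply.

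The members were set against the whole array. In YAP (1SA) against YAP (WT) 0 of the 10 genes were at least 1.5-fold higher, where 3.36% of all probes were, and 0 were at least 1.5-fold lower (4.04% of all probes). In YAP (2SA) against YAP (WT) 0 were higher (3.43%) and 0 lower (3.72%). In YAP (2SA) against YAP (1SA) 0 were higher (5.58%) and 1, Sds, was lower (5.42%). Among probes at least as bright as the dimmest member, the shares at least 1.5-fold different in either direction were 2.39%, 1.87% and 4.40% in the same order. The limit of repeated spots was passed by 2 of the 10 genes in YAP (1SA) against YAP (WT), by 3 in YAP (2SA) against YAP (WT) and by 5 in YAP (2SA) against YAP (1SA). The matching shares of the bright set were 30.6%, 25.8% and 45.0%, so the members' counts lay near the background. The median difference of the 10 genes was 0.06, −0.12 and −0.12.

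**Figure D2:**
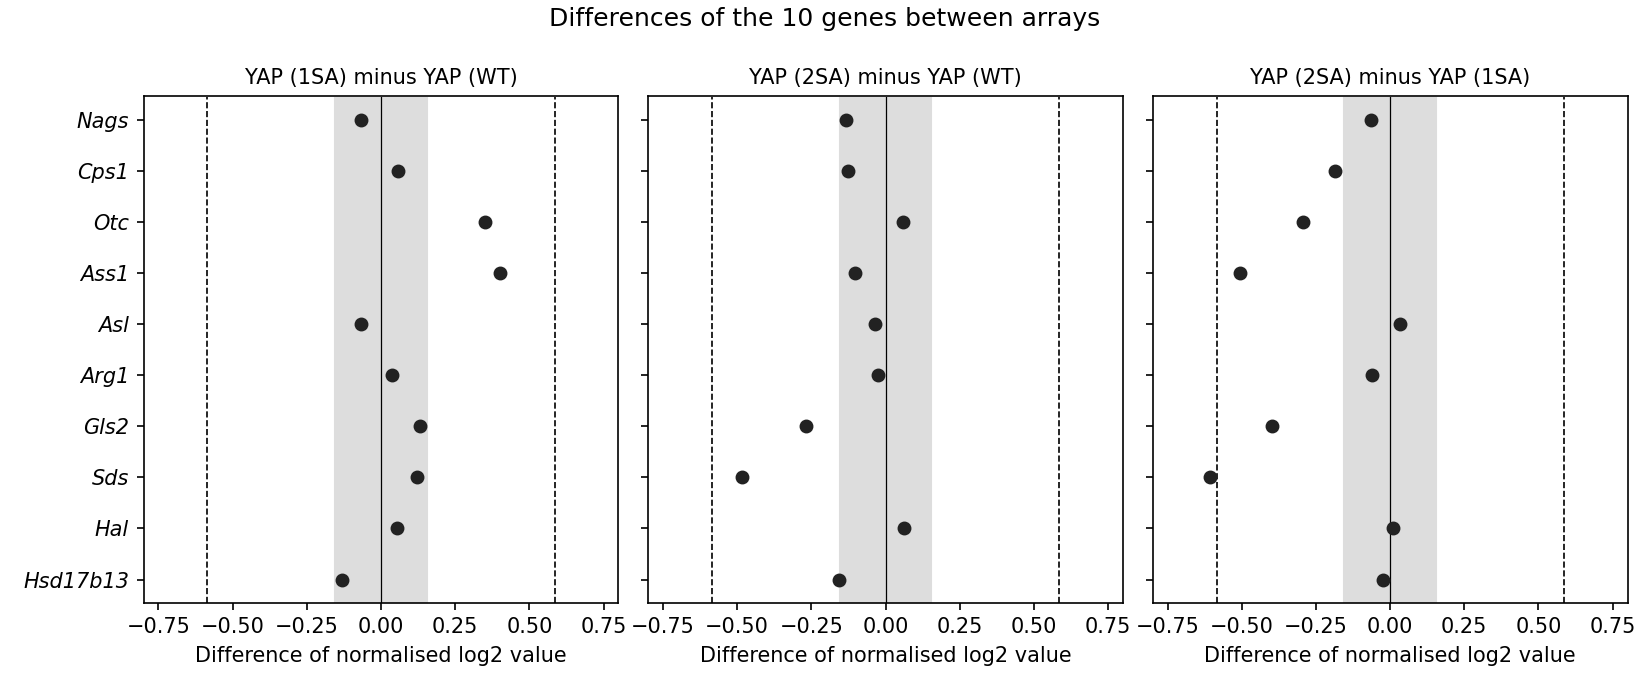
Difference of normalised log2 value (horizontal axis) of each of the 10 genes in the 3 comparisons of the YAP (WT), YAP (1SA) and YAP (2SA) arrays. Each point is 1 gene's brightest probe, the grey band is the limit of repeated spots (0.15 in size) and the dashed lines mark 1.5-fold. The one point beyond a dashed line is Sds in YAP (2SA) against YAP (1SA), at −0.61.

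The members' differences were also read under other scalings of the arrays. With the 75th percentile 7 of the 10 genes lay above 0 in YAP (1SA) against YAP (WT), and 8 lay below 0 in both comparisons of YAP (2SA). After quantile normalisation, which forces the arrays to 1 distribution, 4 lay above and 6 below in each comparison, and the median with YAP (1SA) turned from 0.06 to −0.03. The scalings were the 75th percentile, the array median, quantile normalisation and normexp. What lay past the limit of repeated spots with 1 sign under all 4 scalings was Ass1 (0.26 to 0.44) and Otc (0.26 to 0.39) in YAP (1SA) against YAP (WT). In YAP (2SA) against YAP (WT) it was Sds (−0.57 to −0.44) and Gls2 (−0.27 to −0.19). In YAP (2SA) against YAP (1SA) it was Sds (−0.63 to −0.48), Ass1 (−0.52 to −0.28) and Gls2 (−0.42 to −0.22). Other members crossed the limit with the scaling. In YAP (1SA) against YAP (WT) Hsd17b13 passed it with quantile normalisation (−0.19) and normexp (−0.20), and Gls2 and Sds with the array median (both 0.16). Nags passed it in YAP (2SA) against YAP (WT) with normexp (−0.20), and Hsd17b13 with the 75th percentile alone. Asl passed it in YAP (2SA) against YAP (1SA) with quantile normalisation (0.16) and normexp (0.18), Cps1 did not with either, and Otc did not with quantile normalisation. Sds alone also passed the scanner software's limit under all 4 scalings, in both comparisons of YAP (2SA).

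**Figure D3:**
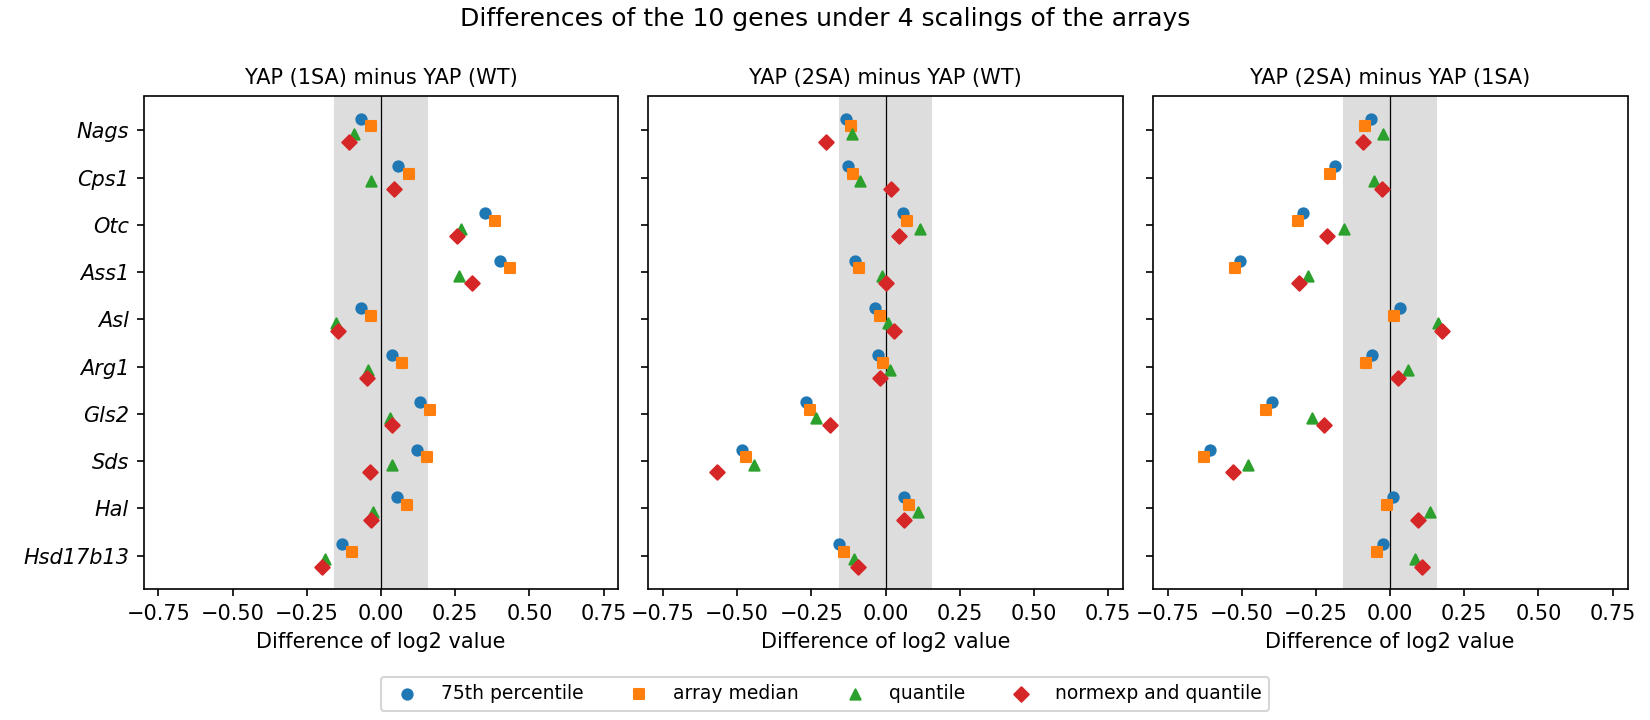
Difference of log2 value (horizontal axis) of each of the 10 genes under 4 ways of scaling the YAP (WT), YAP (1SA) and YAP (2SA) arrays, with 1 marker for each scaling and the limit of repeated spots as the grey band. The series matrix is left out because it gave the same values as the 75th percentile. Ass1 and Otc in the left panel, and Sds and Gls2 in the middle panel, stay outside the band under each scaling.

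Genes for the steps that feed the cycle were also read. Of 10 genes for mitochondrial transport and nitrogen supply, 0 were at least 1.5-fold different with YAP (1SA), and 1, Slc25a22, was lower with YAP (2SA). Slc25a22, a mitochondrial glutamate carrier, stood at 14.7 with YAP (WT), 11.2 with YAP (1SA) and 8.23 with YAP (2SA), a difference of −0.84 for YAP (2SA) against YAP (WT). Aqp9, a channel of the hepatocyte surface for glycerol and urea, differed by 0.25 with YAP (1SA) and −0.34 with YAP (2SA), and was 1.5-fold lower in YAP (2SA) than in YAP (1SA) (−0.59, and −0.61 to −0.55 under the 4 scalings). The median differences of the list were 0.00, −0.12 and −0.15. Of 8 amino acid transporters 1 was at least 1.5-fold higher with YAP (1SA), Slc38a2, a carrier of small neutral amino acids, with differences of 0.72 and 0.24 from YAP (WT). Their medians were 0.13, −0.16 and −0.36.

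Few genes in other routes of amino acid breakdown were 1.5-fold different. Of 10 genes for histidine, serine and glycine none was 1.5-fold different in any comparison, and the medians were 0.12, −0.08 and −0.04. The largest difference was that of Shmt2, mitochondrial serine hydroxymethyltransferase, with −0.44 in YAP (2SA) against YAP (1SA). All 11 genes for aromatic amino acids lay above 0 in YAP (1SA) against YAP (WT) (median 0.16), and 9 to 11 of them did so under the other scalings. In YAP (2SA) against YAP (WT) their median was 0.00. Tat, tyrosine aminotransferase, was the one past 1.5-fold, in YAP (2SA) against YAP (1SA), and stood at 52.4, 70.4 and 41.6 on the YAP (WT), YAP (1SA) and YAP (2SA) arrays. Of 15 genes for sulfur amino acids, proline, lysine and branched-chain amino acids none was 1.5-fold different (medians 0.08, −0.03 and −0.14), and Prodh, proline dehydrogenase, had the largest difference, −0.51 in YAP (2SA) against YAP (1SA).

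Among 8 genes that use arginine, ornithine or glutamine outside the cycle, 7 were measured on all 3 arrays, and Arg2 was not. Odc1, which turns ornithine into the polyamine putrescine, stood at 11.4 with YAP (WT), 9.57 with YAP (1SA) and 21.9 with YAP (2SA). It was 0.95 higher with YAP (2SA) than with YAP (WT), and 0.95 to 0.97 under the 4 scalings. It was the one gene of the list past 1.5-fold. The medians of the list were 0.08, −0.13 and −0.23. Of 13 genes for glucagon, glucocorticoid and amino acid regulation none was 1.5-fold different, with medians of −0.04, −0.09 and −0.06. Hnf4a, a factor that maintains hepatocyte genes, had the largest difference, −0.39 in YAP (2SA) against YAP (1SA).

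**Figure D4:**
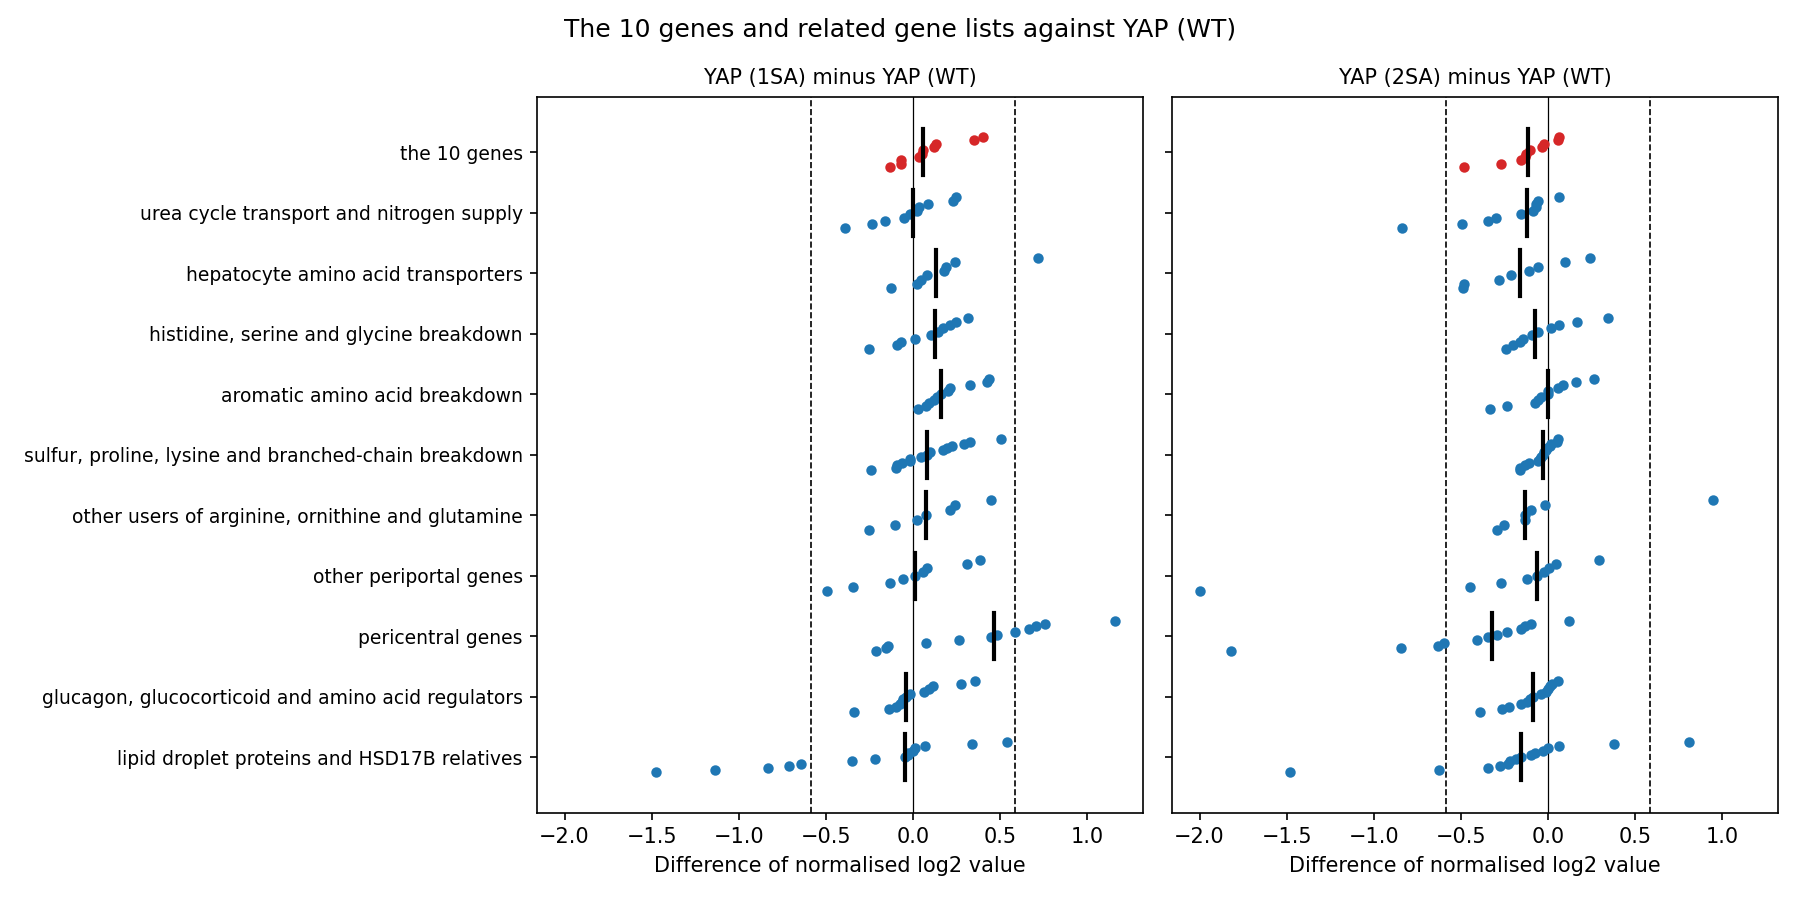
Difference of normalised log2 value from the YAP (WT) array for the 10 genes (red) and related gene lists (blue), with YAP (1SA) on the left and YAP (2SA) on the right. Each point is 1 gene, spread vertically by rank, the black bar is the list's median and the dashed lines mark 1.5-fold. The 10 genes have medians of 0.06 and −0.12, whereas the pericentral genes have medians of 0.47 and −0.32.

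Both ends of the zonation axis were compared. Of 9 other periportal genes 1 was past 1.5-fold, Mfsd2a, a lipid transporter, which stood at 5.44, 3.86 and 1.36 and was lower with YAP (2SA) by 2.00 on the log2 scale. The medians of this list were 0.01, −0.06 and −0.13. The limit of repeated spots was passed by 4, 4 and 6 of the 9 genes in the 3 comparisons. The matching shares of the bright set were 30.6%, 25.8% and 45.0%. Of 12 pericentral genes 5 were at least 1.5-fold higher with YAP (1SA) than with YAP (WT) (Lgr5, Cyp1a2, Slc1a2, Rhbg and Gulo) and 0 were lower. The number higher was 4 with quantile normalisation or normexp. With YAP (2SA) 4 were at least 1.5-fold lower than with YAP (WT) (Cyp7a1, Axin2, Lect2 and Lgr5) and 0 were higher. This count was 3 with quantile normalisation or the array median and 1, Cyp7a1, with normexp. The medians were 0.47, −0.32 and −0.64, and all 12 were lower in YAP (2SA) than in YAP (1SA) under each of the 4 scalings. Glul, which captures ammonia as glutamine near the central vein, stood at 32.8, 44.8 and 30.7, with differences of 0.45 and −0.10 from YAP (WT). Ass1 and Otc were thus higher with YAP (1SA) on the array on which pericentral genes were higher too. The members had medians closer to 0 than the pericentral list in each comparison, a difference between lists that was not tested. The lists also differ in brightness, because all members were bright whereas Axin2 and Lgr5 were dim.

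Lipid droplet genes and relatives of Hsd17b13 were compared next. Of 16 genes 15 were measured on all arrays, and Pnpla3 was not. With YAP (1SA) 5 were at least 1.5-fold lower than with YAP (WT), Cidec (−1.48), G0s2 (−1.13), Plin2 (−0.83), Hsd17b6 (−0.71) and Plin5 (−0.64). With YAP (2SA) 2 were lower, Cidec (−1.48) and Plin4 (−0.63), and 1 was higher, Hsd17b7, an enzyme of cholesterol synthesis (0.81). Plin4 was no longer past 1.5-fold with normexp. Cidec and Plin2 coat lipid droplets and G0s2 restrains their breakdown. The medians of the list were −0.05, −0.15 and 0.01.

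Cell type markers were read beside these values. The 10 hepatocyte markers summed to a scaled intensity of 6845 with YAP (WT), 7266 with YAP (1SA) and 6021 with YAP (2SA), and each was measured on all arrays. Alb, the most abundant plasma protein, stood at 1279, 1369 and 1045. The medians of the hepatocyte markers were 0.09, −0.19 and −0.28, and −0.01, −0.05 and −0.02 after quantile normalisation. Sds and Gls2 were lower with YAP (2SA) and Ass1 and Otc higher with YAP (1SA) under both scalings. With the 75th percentile the Gls2 difference of YAP (2SA) from YAP (WT), −0.27, was close to the marker median of −0.19. Quantile normalisation forces the arrays to 1 distribution, so the shift of these very bright markers towards 0 says little about them. The 7 Kupffer cell markers summed to 237, 179 and 136, and all 7 lay below 0 in YAP (2SA) against YAP (WT) with the 75th percentile (6 with the other scalings). Their medians were −0.36 with YAP (1SA) and −0.90 with YAP (2SA). Marco, a scavenger receptor of macrophages, was lower with both mutants (−1.21 and −1.59), and Clec4f (−1.56), Timd4 (−0.97), Vsig4 (−0.90) and Cd5l (−0.84) were lower with YAP (2SA). With YAP (1SA) 2 of the 7 lay above 0, Clec4f (0.45) and Vsig4 (0.07). A sum follows its brightest probes, so the medians of the other lists are given beside it. The 6 sinusoidal endothelial markers summed to 76.0, 80.6 and 63.5, with medians of 0.00 and −0.03 against YAP (WT). Clec4g was lower with YAP (2SA) by 0.59 on the log2 scale, while 3 of the 6 lay above 0. The 6 bile duct markers summed to 13.2, 4.37 and 10.9, of which Spp1 made up 12.2, 3.66 and 9.80. Their medians were −0.78 and −0.07, and Spp1 (−1.73), Epcam (−0.90), Krt19 (−0.82) and Krt7 (−0.73) were at least 1.5-fold lower with YAP (1SA), all but Spp1 being dim. Of the 6, 1 was higher with YAP (1SA), by 0.43. With normexp the median with YAP (1SA) was −0.21 and 1 marker was at least 1.5-fold lower.

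The 6 stellate cell markers summed to 39.5, 36.0 and 26.6, with medians of −0.12 and −0.59. With YAP (2SA) all 6 lay below 0, and with the 75th percentile Col1a1 (−0.68), Pdgfrb (−0.61) and Lrat (−0.60) were past 1.5-fold, while Dcn was past it in YAP (2SA) against YAP (1SA) alone (−0.68). Of 7 leukocyte markers 6 had a value, with sums of 11.8, 11.4 and 12.2 and medians of 0.00 and 0.29. Ptprc, the common leukocyte antigen, was dim and differed by −0.61 with YAP (1SA) and 0.53 with YAP (2SA). Of 6 red cell markers 4 had a value, with sums of 23.1, 30.2 and 24.3, of which Alas2 made up 21.3, 28.7 and 22.7. None of the markers with a value was at 0. In whole liver, fewer cells of a type and less RNA per cell cannot be told apart, and the part of cell make-up in the members' values was not tested.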

How the data were processed

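RNA from 3 mouse livers or pools, 1 per group, was hybridised by the authors to one-colour Agilent SurePrint G3 arrays on 1 slide. The authors extracted spot values with Agilent Feature Extraction 10.10.1.1, with probes placed on mm9 per the file headers. The deposited intensity is the background-subtracted, detrended brightness on a linear scale, not scaled between arrays. The series matrix held the same intensity times 1 constant per array, and its source was not stated.

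Here flagged spots were left out, log2 intensities of a probe's spots were averaged, and the log2 of each array's 75th percentile was subtracted. A probe counted as measured where at least 50% of its spots were well above background. Genes were named by RefSeq accession through a GRCm38.p6 table, used for names and promoters only (26756 of 55681 probes, 20280 symbols). The brightest probe measured on all arrays stood for a gene. Levels of different probes were not compared. Genes named beside the members were those at least 1.5-fold different in any comparison within 20 lists, or else a list's largest difference, and Alb. A gene of one list is not reported here and was left out of its counts and medians. Glul was named after its values were seen. The members and lists were chosen with earlier results of these data known. The limit of repeated spots was the median SD of probes with at least 8 spots and an intensity of at least 1000, times the square root of 2 and times 2. This limit, the scanner software limit, the bright set and the rescaling of the lists were chosen after seeing the data.

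Alternatives were quantile normalisation, the array median, normexp (offset 50, on median spot and local background, then quantile normalisation), the series matrix, no filter or a stricter filter on dim probes, flagged spots kept, the mean of all probes of a gene, and a 2-fold threshold. The script was tested on simulated data. Python 3.11.15, pandas 2.3.3, numpy 2.4.6, matplotlib 3.10.9 and R 4.3.3 with limma 3.58.1 were used. With 1 array per group, the number of arrays limits the precision.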

Additional observations from a re-analysis of the deposited data

Results flagged for a closer look

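Of the genes named above, 10 lay past the limit of repeated spots in opposite directions in the mutants. Genes outside the members were mostly named for large differences on these arrays, so the count comes from a selected set. The share of all probes with such opposite differences was not counted. The limit was 0.15. For probes with an intensity under 1000 on any array 0.21 was used, which came from repeated probes of all intensities, bright ones included. It is thus not a limit of dim probes alone, whose spread may be wider. The directions held under all 4 scalings, but with normexp Aqp9 (0.21) and Lrat (0.14) with YAP (1SA) fell under the wider limit. Each was measured on 1 array a group, and the difference between the mutants was not tested. None of the 10 members lay past the limit in opposite directions with the scaling used for the values below. With the array median Gls2 (0.16 and −0.25) and Sds (0.16 and −0.47) did, in YAP (1SA) and YAP (2SA) against YAP (WT). For the counted genes, values are given for YAP (1SA) and then YAP (2SA) against YAP (WT). These values were 0.25 and −0.34 for Aqp9, 0.24 and −0.20 for Shmt2, and 0.43 and −0.33 for Tat. They were 0.71 and −0.41 for Slc1a2, a glutamate transporter, 0.48 and −0.84 for Axin2 and 1.16 and −0.60 for Lgr5, both targets of Wnt signalling. They were 0.45 and −1.56 for Clec4f, a Kupffer cell lectin, and 0.26 and −0.60 for Lrat, which stores retinol in stellate cells. The reverse order held for Odc1 (−0.25 and 0.95) and Ptprc (−0.61 and 0.53). Both differences of a gene share the YAP (WT) array, and Aqp9, Axin2, Lgr5, Lrat and Ptprc were dim.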

How the results depend on the processing

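Quantile normalisation and normexp moved the median difference of the 10 genes in YAP (1SA) against YAP (WT) from 0.06 to −0.030 and −0.034. In YAP (2SA) against YAP (WT) normexp moved it from −0.12 to −0.0093 and quantile normalisation to −0.050, and in YAP (2SA) against YAP (1SA) quantile normalisation moved it from −0.12 to −0.040 and normexp to −0.059. The number of members at least 1.5-fold lower in YAP (2SA) than in YAP (1SA), 1, became 0 with quantile normalisation, with normexp and at a 2-fold threshold. A value was taken as moved when it changed by at least 0.077 on the log2 scale, the SD of a difference between repeated spots, and a count when it changed by over 1.5 times. Quantile normalisation and normexp each left 18 of 39 results unmoved and moved 21, by at most 0.23 and 0.20 for a gene. The array median, the series matrix, both filters on dim probes and keeping flagged spots moved none of the 39 by that much. The array median gave 0.09 for the median in YAP (1SA) against YAP (WT), and turned Hal in YAP (2SA) against YAP (1SA) from 0.0099 to −0.0091. Leaving dim probes unfiltered shifted the median of all probes to −0.11, −0.15 and −0.19. The mean of all probes moved Hsd17b13 alone by that much, to −0.05, 0.03 and 0.08, and gave −0.07 for the median in YAP (2SA) against YAP (WT). No paired analysis was possible because 1 array stood for each form of YAP. For the same reason no array could be left out, and a block for the slide was not possible.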
